A study of Mus musculus with 8 samples.

Results

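Prostaglandins are short-lived lipid signals that cells make from arachidonic acid. Phospholipase A2 frees the acid from membranes, a cyclooxygenase turns it into prostaglandin H2, and terminal synthases turn that intermediate into prostaglandin E2, prostacyclin or prostaglandin D2. The products act on G-protein-coupled receptors and are inactivated by a dehydrogenase, and fibroblasts are a known source of prostaglandin E2 in inflamed tissue and in tumours. The 10 genes described here cover these steps. They are Pla2g4a for release, Ptgs1 and Ptgs2 for cyclooxygenation, Ptges, Ptgis and Ptgds for the terminal synthases, Ptger2, Ptger4 and Ptgfr for reception and Hpgd for breakdown. They were taken by symbol, with earlier results of these data known, from a read count table of 53801 genes, in which each had 1 row.

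The study compared tumour stromal cells that express the metalloprotease gene Adam12 with stromal cells that do not. The mice, on a C57Bl/6 background, carried ADAM12-GFP, a bacterial artificial chromosome transgene in which Adam12 regulatory sequence drives Cre and GFP. At 8 to 12 weeks of age they were inoculated under the skin with MO5 cells, a line of B16 melanoma that carries the ovalbumin gene, and the cells were taken on day 8. Sorted cells were PDPN+ and PDGFRα+ and lacked CD45 and CD31, and GFP alone divided them into GFP- and GFP+ cells, with 4 RNA libraries each. Both groups thus shared the transgene, the tumour line and the sort, and group membership reads the reporter rather than the ADAM12 protein. The study's methods count mice as n unless stated otherwise, so the 4 libraries of a group are taken as separate mice. The labels do not say whether same-numbered GFP- and GFP+ libraries share a mouse.

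Totals of assigned reads ran from 883144, in GFP- replicate 3, to 31666734, in GFP+ replicate 4. Of 6 fibroblast markers, 5 were called higher in GFP+ libraries, where their summed normalised count ran from 544800 to 622300, against 198800 to 446500 in GFP- libraries. All 7 melanocyte markers were called lower, with sums of 4422 to 10770 in GFP+ and 23020 to 68090 in GFP- libraries. Leukocyte markers summed to 615.6 to 4373 in GFP- and 619.2 to 3397 in GFP+ libraries, and 0 of 7 were called by DESeq2 or edgeR, or had a p under 0.05 before adjustment. Ptprc, which encodes CD45, averaged 624.0 ± 732.1 (SD, n = 4) and 588.7 ± 594.6 (SD, n = 4), so it was not at 0 in either group. Among further markers DESeq2 called Kit higher among 5 mast cell markers and Abcc9 among 4 pericyte markers. Their edgeR adjusted p were 0.0669 and 0.0975, and the groups overlapped for both. Of 5 endothelial markers, Vwf was called lower by DESeq2 and edgeR. Kdr in that list was higher, at 1.14 in log2 units, with unadjusted p of 0.0138 in DESeq2 and 0.0225 in edgeR, but was not called. Of 3 keratinocyte markers 0 were called by DESeq2 or edgeR, but only 1 had a DESeq2 adjusted p. Another, Krt5, was under 0.05 before adjustment in DESeq2.

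Of the 10 prostaglandin genes, 1 rose and 1 fell in GFP+ cells. Ptges, the inducible synthase of prostaglandin E2, was 1.69-fold higher by its group means, and Ptgds, the prostaglandin D2 synthase known from brain, was 8.12-fold lower. A call here is a DESeq2 adjusted p under 0.05 over all genes tested, and a normalised count is a read count after division by the size factor that DESeq2 gave the library. Of all 15283 genes with an adjusted p, 4.66% were called higher and 4.76% lower, and 1 in each direction among the 8 prostaglandin genes with an adjusted p is too few to set apart from that background. In edgeR's test, which called 2.83% of genes higher and 2.28% lower, 0 of the 9 prostaglandin genes tested were called higher and 1, Ptgds, was called lower. Before adjustment DESeq2 and edgeR each gave a p under 0.05 to 3 prostaglandin genes that were higher and 1 that was lower, and for DESeq2 these were Ptgs2, Ptges, Hpgd and Ptgds. The same was true of 10.2% (higher) and 10.8% (lower) of all genes tested by DESeq2, and of 9.21% and 8.41% of those tested by edgeR. The libraries of both groups did not overlap for Ptges and Ptgds, a state found for 6.37% of tested genes with GFP+ higher and for 5.95% with GFP+ lower. The median log2 fold change was 0.26 over the 8 genes and -0.0082 over all tested genes. In sorted bulk RNA, fewer cells of a type and less RNA per cell cannot be told apart. The part of the fibroblast and melanocyte marker differences in the differences described here was not tested for any gene.

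The scaling of the libraries bore on every value near the threshold. With size factors set by total counts, an alternative chosen after the data were seen, log2 fold changes of tested genes shifted by a median of -0.17, and 28.2% of all calls were higher in GFP+ in place of 49.5%. Under that scaling DESeq2 put Ptges at 0.59 in log2 units (adjusted p = 0.0511) and Ptgds at -3.18 (adjusted p = 2.03e-06). No prostaglandin gene with an adjusted p changed direction under it.

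**Figure D1:**
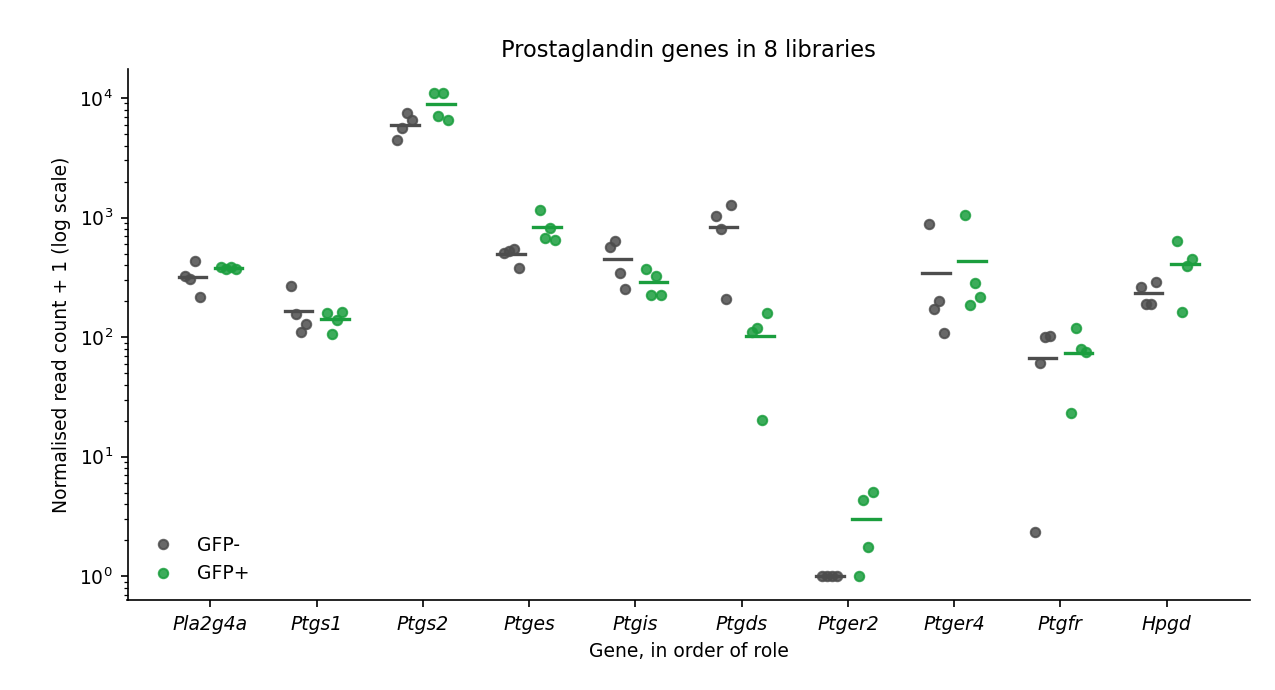
Normalised read count plus 1 of the 10 prostaglandin genes on a log axis, with a point for each of the 4 GFP- (grey) and 4 GFP+ (green) libraries and a bar at each group mean. Ptges is the gene whose GFP+ points all lie above the GFP- points, Ptgds is the gene whose GFP+ points all lie below, and Ptgs2 is the highest gene in both groups.

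Release of arachidonic acid was examined first. Pla2g4a, the cytosolic phospholipase A2 (chromosome 1, 149829618 to 149961290, minus strand, GRCm38), had normalised counts of 322.9, 303.1, 428.5 and 215.9 in GFP- replicates 1 to 4. Its counts in GFP+ replicates 1 to 4 were 383.3, 370.7, 382.6 and 369.4. The GFP+ values lay close together and inside the GFP- range. In log2 units GFP+ exceeded GFP- by 0.30 ± 0.24 (SE; 95% interval -0.16 to 0.77; DESeq2 adjusted p = 0.510). With single libraries left out the value ran from 0.15, without GFP- replicate 4, to 0.42, without GFP- replicate 3.

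Both groups held far more transcript of the inducible than of the constitutive cyclooxygenase. Ptgs2, which encodes the cyclooxygenase induced by cytokines and growth factors (chromosome 1, 150100031 to 150108227, plus strand), had normalised counts of 4468, 5611, 7427 and 6490 in GFP- libraries. In GFP+ libraries it had 10913, 7104, 10977 and 6526. GFP+ replicates 1 and 3 lay above every GFP- library, whereas GFP+ replicates 2 and 4 lay within the GFP- range. The group means were 5999 ± 1262 (SD, n = 4) and 8880 ± 2396 (SD, n = 4). This log2 fold change of 0.57 ± 0.24 (SE; 95% interval 0.10 to 1.03) did not pass the test (adjusted p = 0.120 in DESeq2 and 0.153 in edgeR). Of all single libraries, leaving out GFP+ replicate 4 alone brought a call, at 0.69 in log2 units (DESeq2 adjusted p = 0.0386), and leaving out both replicates numbered 1 lowered the value to 0.35 (DESeq2 adjusted p = 0.448).

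Ptgs1 encodes the cyclooxygenase that most tissues express at rest (chromosome 2, 36230426 to 36252272, plus strand). Its normalised counts were 264.6, 155.5, 109.9 and 127.1 in GFP- libraries and 156.9, 104.6, 136.7 and 161.0 in GFP+ libraries. GFP- replicate 1 was the highest and the other libraries of both groups were mixed. GFP+ differed from GFP- by -0.27 ± 0.35 in log2 units (SE; 95% interval -0.95 to 0.41; DESeq2 adjusted p = 0.734), and by 0.044 without GFP- replicate 1.

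Levels of different genes were compared as TPM, a scale on which reads are divided by the summed exon length of a gene before each library is set to the same total. On this scale the median tested gene stood lower in GFP+ libraries, at a log2 ratio of mean TPM of -0.28, and differences between the groups were called on counts. Ptgs2 stood at 316.5 ± 85.1 TPM in GFP- libraries and at 376.2 ± 72.4 TPM in GFP+ libraries (SD, n = 4 each), at percentile 98.8 of tested genes by its mean over all libraries. Ptgs1 stood at 9.94 ± 3.55 and 6.997 ± 0.639 TPM (SD, n = 4 each), at percentile 50.5. The TPM of Ptgs2 was 14.3 to 57.3 times that of Ptgs1 in the GFP- libraries and 34.4 to 68.1 times in the GFP+ libraries. On raw counts, the log2 ratio of Ptgs2 to Ptgs1 averaged 5.23 ± 0.845 in GFP- libraries and 5.97 ± 0.430 in GFP+ libraries (SD, n = 4 each). That difference of 0.73 had a two-sided exact permutation p of 0.171 (0.514 adjusted over 3 ratios), where the smallest p that 4 against 4 libraries allow is 0.0286. With single libraries left out it ran from 0.35, without GFP- replicate 1, to 0.99, without GFP- replicate 3.

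The sequences around the start sites are shown for the cyclooxygenase pair and for Ptges, since these are the abundant and the scarce cyclooxygenase and the gene that was called higher. Each window runs from 250 bases before to 30 bases after the RefSeq start site, 5′ to 3′ on the strand of the gene, from GRCm38.p6, and capitals mark matches to the motifs searched. The windows are chr1:150099781-150100060 on the plus strand for Ptgs2, chr2:36230176-36230455 on the plus strand for Ptgs1 and chr2:30903268-30903547 on the minus strand for Ptges.
Ptgs2: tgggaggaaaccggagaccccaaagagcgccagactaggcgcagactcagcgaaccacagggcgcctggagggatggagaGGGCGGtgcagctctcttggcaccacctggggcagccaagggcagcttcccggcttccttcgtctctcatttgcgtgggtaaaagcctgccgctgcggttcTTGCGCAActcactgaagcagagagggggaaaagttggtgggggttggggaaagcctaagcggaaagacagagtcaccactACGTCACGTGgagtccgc
Ptgs1: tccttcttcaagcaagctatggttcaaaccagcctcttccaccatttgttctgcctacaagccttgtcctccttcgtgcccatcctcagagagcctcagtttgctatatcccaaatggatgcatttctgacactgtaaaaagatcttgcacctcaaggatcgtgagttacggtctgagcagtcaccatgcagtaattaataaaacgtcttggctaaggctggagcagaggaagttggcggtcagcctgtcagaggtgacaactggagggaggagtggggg
Ptges: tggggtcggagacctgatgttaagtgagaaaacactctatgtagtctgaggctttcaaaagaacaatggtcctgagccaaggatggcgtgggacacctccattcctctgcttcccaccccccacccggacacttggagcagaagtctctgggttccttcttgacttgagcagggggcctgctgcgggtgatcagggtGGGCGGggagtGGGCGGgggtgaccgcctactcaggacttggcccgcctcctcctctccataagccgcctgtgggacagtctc
Motifs were searched on both strands. The core of the cAMP response element was TGACGT. The E-box was CACGTG, and a palindrome that C/EBP factors bind was TTGCGCAA. The GC box was GGGCGG, the TATA box was TATAAA and the AP-1 motif was TGANTCA.

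In the Ptgs2 window GGGCGG lay at bases -170 to -165 and TTGCGCAA at bases -69 to -62, counted from the start site as base 1. TGACGT, on the opposite strand, lay at bases 13 to 18 and shared letters with CACGTG at bases 17 to 22. TTGCGCAA was held by 0.18% of the 32851 RefSeq windows of this length, TGACGT by 7.26% and CACGTG by 6.79%. The Ptges window held GGGCGG at bases -53 to -48 and -42 to -37, letters that 34.7% of windows held. The Ptgs1 window held 0 matches to the 6 motifs. Of the other genes, TATAAA (13.1% of windows) was found for Pla2g4a and Hpgd. For Pla2g4a it lay at bases -200 to -195 on the opposite strand, counted from start site 2 of that gene. For Hpgd it lay at bases 5 to 10, after the start site. TGANTCA (7.46%) was found for Ptgds, and GGGCGG for Ptger4, Ptgfr and Hpgd. The RefSeq table gave a window for 9 of the 10 genes, all but Ptgis. A match is a description of letters, and binding was not measured in these libraries.

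The terminal synthases decide which prostaglandin is made. Ordered by TPM, Ptges was the highest of the 3 in all 4 GFP+ libraries and Ptgds the highest in 3 of 4 GFP- libraries, an order that was not tested. Ptges encodes the microsomal synthase that works beside Ptgs2 (chromosome 2, 30889471 to 30929863, minus strand). Its normalised counts were 507.4, 526.0, 549.4 and 379.2 in GFP- libraries and 1159.5, 676.9, 818.2 and 651.9 in GFP+ libraries. Every GFP+ library lay above every GFP- library, and GFP+ replicate 1 was the highest. The means were 490.5 ± 76.1 (SD, n = 4) and 826.6 ± 233.7 (SD, n = 4). This was a log2 fold change of 0.76 ± 0.25 (SE; 95% interval 0.28 to 1.25), and the adjusted p was 0.0271 in DESeq2, 0.0660 in edgeR and 0.0509 in limma. Leaving out GFP- replicate 1, 2 or 4, or GFP+ replicate 1 or 3, ended the call, and DESeq2 then gave adjusted p of 0.0557, 0.0632, 0.130, 0.0824 and 0.0886 in that order. The call was lost in 10 of 17 alternative settings, while the fold change stayed above 0 in each. In TPM, on which the median tested gene was shifted by -0.28 in log2 units, the Ptges ranges overlapped, at 23.5 to 35.9 in GFP- and 31.7 to 49.8 in GFP+ libraries.

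Ptgds encodes the lipocalin-type prostaglandin D2 synthase (chromosome 2, 25466709 to 25470046, minus strand). Its normalised counts were 1027, 799.1, 208.8 and 1269 in GFP- libraries and 109.7, 118.4, 19.2 and 159.4 in GFP+ libraries. Each GFP+ library lay below each GFP- library, and replicate 3 was the lowest of both groups. In raw reads these were 757, 1115, 19 and 2415 against 79, 283, 25 and 475, so GFP- replicate 3 rested on 19 reads. The means were 825.8 ± 453.8 (SD, n = 4) and 101.7 ± 59.1 (SD, n = 4). In log2 units this was -3.03 ± 0.56 (SE), and the adjusted p was 5.17e-06 in DESeq2 and 0.00800 in edgeR. The log2 value ran from -3.35 to -2.69 over 17 alternative settings, with a highest adjusted p of 0.0435 in a DESeq2 fit without both replicates numbered 1. Without GFP- replicate 3 it was -3.35.

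The melanocyte markers moved with Ptgds. Their summed normalised counts, which held the transcripts of Pmel, Dct, Tyrp1, Tyr, Mlana, Mitf and Sox10, were 46680, 42890, 23020 and 68090 in GFP- libraries and 4466, 6898, 4422 and 10770 in GFP+ libraries. GFP- replicate 3 was the lowest GFP- library and GFP+ replicate 3 the lowest GFP+ library for both Ptgds and the markers. Per 1000 marker counts, Ptgds stood at 22.0, 18.6, 9.07 and 18.6 in GFP- libraries and 24.6, 17.2, 4.34 and 14.8 in GFP+ libraries, so that the groups overlapped on this scale. The part of melanocyte transcripts in the Ptgds difference was not tested.

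**Figure D2:**
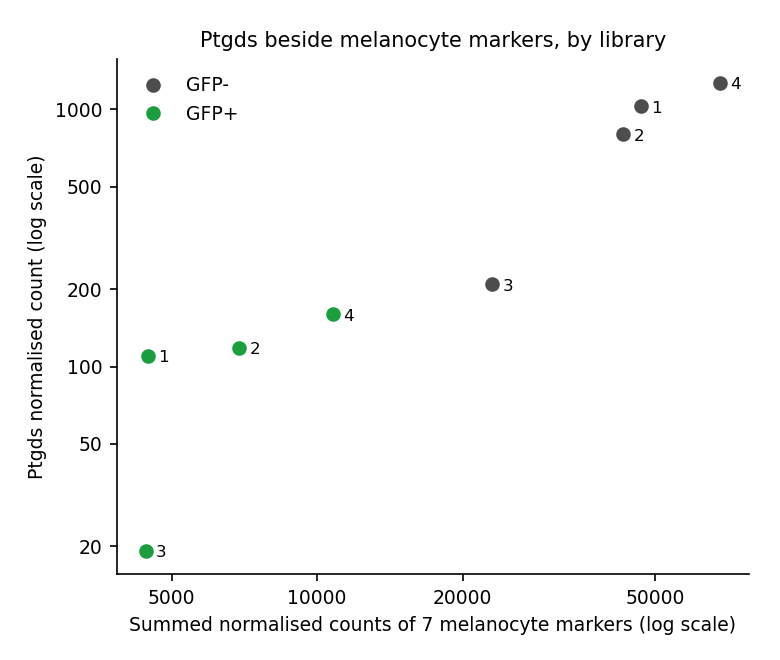
Normalised count of Ptgds (vertical axis) against the summed normalised counts of 7 melanocyte markers (horizontal axis), both on log axes, with a numbered point for each replicate of GFP- (grey) and GFP+ (green) cells. GFP+ libraries lie at marker sums of 4422 to 10770 and GFP- libraries at 23020 to 68090, and Ptgds is lower in every GFP+ library.

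Ptgis encodes prostacyclin synthase, whose product widens vessels and restrains platelets (chromosome 2, 167191805 to 167240604, minus strand). Its normalised counts were 568.4, 636.4, 340.6 and 250.02 in GFP- libraries and 372.2, 224.3, 323.4 and 224.5 in GFP+ libraries. GFP- replicates 1 and 2 lay above all GFP+ libraries and GFP- replicates 3 and 4 did not. The difference was -0.67 ± 0.34 in log2 units (SE; 95% interval -1.34 to 0.0029), with adjusted p of 0.241 in DESeq2 and 0.299 in edgeR.

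Per length, Ptges, Ptgis and Ptgds stood at 29.9 ± 5.197, 41.3 ± 15.4 and 118.0 ± 64.7 TPM (SD, n = 4) in GFP- libraries. In GFP+ libraries they stood at 40.8 ± 7.69, 21.6 ± 3.396 and 12.5 ± 7.66 TPM (SD, n = 4). In GFP+ libraries the range of Ptges did not overlap that of Ptgis, and the ranges of Ptgis and Ptgds overlapped. In GFP- replicate 3 the synthases stood at 35.9, 34.1 and 32.5 TPM in the same order, and this was the GFP- library where Ptges was the highest.

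**Figure D3:**
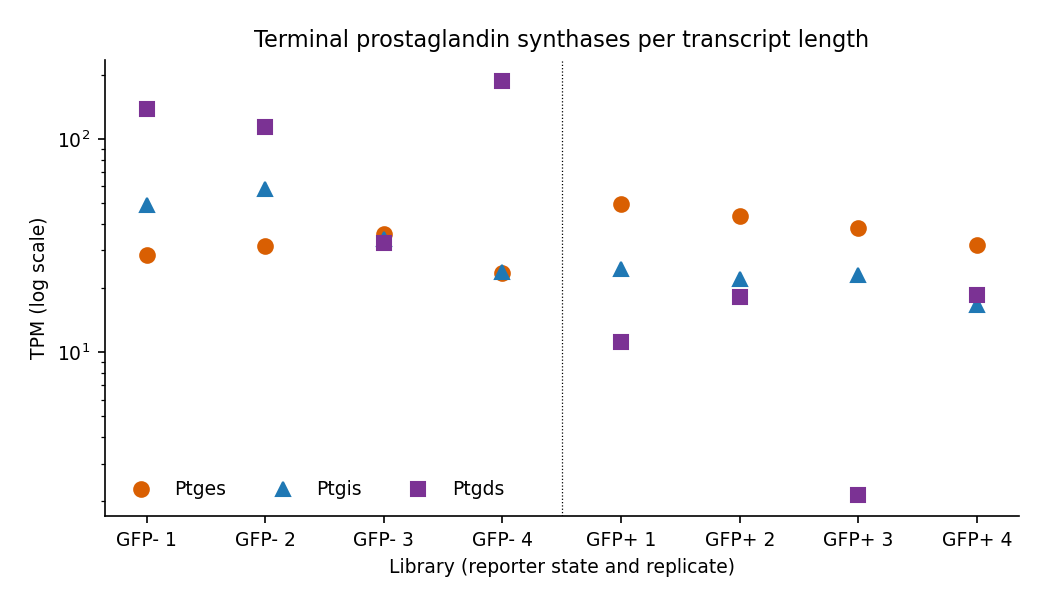
TPM of the terminal synthases Ptges (circles), Ptgis (triangles) and Ptgds (squares) on a log axis in each of the 8 libraries, GFP- on the left of the dotted line and GFP+ on the right. Ptges is the highest symbol in all 4 GFP+ libraries, and Ptgds is the highest in GFP- replicates 1, 2 and 4.

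The receptors stood far below Ptgs2 in TPM, and DESeq2 called 0 of the 3. Ptger2 and Ptger4 encode EP2 and EP4, the prostaglandin E2 receptors that raise cAMP. Ptger2 (chromosome 14, 44988195 to 45003820, plus strand) had 0 reads in every GFP- library, and 0, 8, 1 and 12 reads in GFP+ replicates 1 to 4. That is 0 of 40463783 GFP- reads, which allows up to 0.0741 CPM (3 reads over the group), against 21 of 80400520 GFP+ reads, or 0.261 CPM. Such limits cover counting error only. DESeq2 gave Ptger2 an unadjusted p of 0.405, its filter on low counts withheld the adjusted p, which was 0.998 without that filter, and edgeR left the gene out for its low counts. The pooled GFP+ rate lay above the limit for GFP- reads, with most of its reads from GFP+ replicates 2 and 4, but the test between libraries called no difference.

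Ptger4 (chromosome 15, 5206661 to 5244187, minus strand) had normalised counts of 880.5, 172.0, 197.8 and 107.7 in GFP- libraries and 1054, 182.8, 280.4 and 217.4 in GFP+ libraries. The libraries numbered 1 stood far above the other 3 of their group, in GFP- and in GFP+ alike, and the groups overlapped. The means were 339.5 ± 362.7 (SD, n = 4) and 433.7 ± 415.5 (SD, n = 4), so that the spread exceeded the difference. DESeq2 put the difference at 0.35 ± 0.87 (SE) in log2 units and gave no p because of its filter on outlying counts, and the edgeR adjusted p was 0.874. Leaving out GFP+ replicate 1 turned the log2 fold change to -0.58, leaving out GFP- replicate 1 took it to 1.47, and without both it was 0.59 (DESeq2 adjusted p = 0.383). Exons of Ptger4 overlap those of Ttc33 on the opposite strand. Ttc33 had normalised counts of 69.2, 97.5, 142.8 and 128.7 in GFP- and 316.6, 123.8, 56.1 and 139.6 in GFP+ libraries, so it was high in GFP+ replicate 1 but not in GFP- replicate 1. Ptger2 had 0 reads in 5 of 8 libraries, where a ratio of Ptger4 to Ptger2 rests on the Ptger4 reads and the added count alone. The group difference in this log2 ratio was -0.82 with 0.5 added to each count and 0.30 with 2 added, and no direction is read from it.

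Ptgfr encodes FP, the receptor of prostaglandin F2α (chromosome 3, 151796502 to 151837630, minus strand). Its normalised counts were 1.36, 60.2, 98.9 and 100.3 in GFP- libraries and 22.2, 118.0, 79.1 and 73.8 in GFP+ libraries. The libraries numbered 1 were the lowest in both groups, the reverse of Ptger4, and the groups overlapped. GFP+ differed by 0.21 ± 0.83 in log2 units (SE; 95% interval -1.43 to 1.84; DESeq2 adjusted p = 0.940). The value was -0.21 without GFP- replicate 1 and -0.12 without GFP+ replicate 2.

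Hpgd encodes the dehydrogenase that begins the inactivation of prostaglandins (chromosome 8, 56294585 to 56321043, plus strand). Its normalised counts were 261.8, 187.0, 186.8 and 289.9 in GFP- libraries and 638.8, 162.3, 388.7 and 446.2 in GFP+ libraries. GFP+ replicates 1, 3 and 4 lay above all GFP- libraries, and GFP+ replicate 2 lay below all of them. The means were 231.4 ± 52.6 (SD, n = 4) and 409.0 ± 196.2 (SD, n = 4). The difference of 0.80 ± 0.39 in log2 units (SE; 95% interval 0.037 to 1.57) had adjusted p of 0.209 in DESeq2 and 0.261 in edgeR. Without GFP+ replicate 2 it was 1.06 (DESeq2 adjusted p = 0.0123), and without GFP+ replicate 1 it was 0.52 (DESeq2 adjusted p = 0.497). The log2 ratio of Ptgs2 to Hpgd, which sets synthesis beside breakdown, averaged 4.69 ± 0.513 in GFP- libraries and 4.56 ± 0.719 in GFP+ libraries (SD, n = 4 each). The difference of -0.13 had an exact permutation p of 0.771 (0.771 adjusted over 3 ratios).

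Ordered by mean TPM in GFP- libraries, the genes ran from Ptgs2 through Ptgds, Ptgis, Hpgd, Ptges, Pla2g4a, Ptger4, Ptgs1 and Ptgfr to Ptger2. The ranges of neighbours did not overlap between Ptgs2 and Ptgds, Ptges and Pla2g4a, Ptgs1 and Ptgfr, and Ptgfr and Ptger2. The other neighbours overlapped. In GFP+ libraries the order was Ptgs2, Hpgd, Ptges, Ptgis, Ptgds, Ptger4, Pla2g4a, Ptgs1, Ptgfr and Ptger2. Ranges there did not overlap between Ptgs2 and Hpgd, Ptges and Ptgis, Pla2g4a and Ptgs1, Ptgs1 and Ptgfr, and Ptgfr and Ptger2. Hpgd stood at 32.8 ± 7.06 TPM in GFP- libraries and 45.4 ± 16.6 TPM in GFP+ libraries, and Pla2g4a at 11.95 ± 3.78 and 11.7 ± 1.997 TPM (SD, n = 4 each). The receptors averaged 11.75 ± 11.8 and 11.9 ± 9.91 TPM for Ptger4, and 2.37 ± 1.72 and 2.29 ± 1.58 TPM for Ptgfr (SD, n = 4). Ptger2 stood at 0 TPM in GFP- libraries and at 0.0844 ± 0.0828 TPM (SD, n = 4) in GFP+ libraries.

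Another 61 genes around the pathway, in 6 lists chosen with earlier results of these data known, were examined in the same fit. Of these, 52 had an adjusted p, 8 were called higher and 2 lower, against the 4.66% and 4.76% of all tested genes, and edgeR called 4 higher and 2 lower. Their median log2 fold change was 0.20, against -0.0082 over all tested genes. Lists chosen in this way cannot test for an excess of calls. Areg had no row in the table, and Pla2g4b and Ptgdr2 had no reads.

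Among 16 other synthesis genes, 14 had an adjusted p and 1 fell, at a median log2 fold change of -0.35. Pla2g5, a secreted phospholipase A2, had normalised counts of 16.3, 25.1, 43.95 and 44.1 in GFP- and 0, 0.418, 3.07 and 2.68 in GFP+ libraries. In raw reads these were 12, 35, 4 and 84 against 0, 1, 4 and 8, so GFP- replicate 3 rested on 4 reads. The groups did not overlap, and the difference was -4.24 ± 0.93 in log2 units (SE), with adjusted p of 0.000220 in DESeq2 and 0.0468 in edgeR. Hpgds, the haematopoietic prostaglandin D2 synthase, had 408.4, 275.2, 197.8 and 417.6 against 0, 85.3, 9.22 and 70.5. All GFP+ libraries lay below all GFP- libraries, as for Ptgds, and the adjusted p was 0.0913 in DESeq2 and 0.0605 in edgeR.

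Among 6 other receptors, 4 had an adjusted p and 1 rose. Ptgir, the prostacyclin receptor, had normalised counts of 23.1, 32.3, 98.9 and 35.2 in GFP- and 181.9, 115.5, 129.1 and 157.7 in GFP+ libraries. The groups did not overlap, and GFP- replicate 3, at 9 reads, came nearest to the GFP+ libraries. Its difference of 1.91 ± 0.45 in log2 units (SE) had adjusted p of 0.000651 in DESeq2 and 0.0648 in edgeR. Ptger3, another prostaglandin E2 receptor, averaged 20.3 ± 9.44 and 74.0 ± 61.5 (SD, n = 4; DESeq2 adjusted p = 0.166).

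All 5 transport and breakdown genes had an adjusted p, and 1 rose. Slco2a1, the transporter that takes prostaglandins back into the cell ahead of breakdown by Hpgd, had normalised counts of 1632, 1612, 2681 and 1337 in GFP- and 5278, 4029, 6051 and 2908 in GFP+ libraries. Every GFP+ library lay above every GFP- library. The difference was 1.34 ± 0.28 in log2 units (SE), with adjusted p of 7.96e-05 in DESeq2 and 0.00781 in edgeR, and the call held in all 17 alternative settings. It stood beside 5 of 6 fibroblast markers that rose, whose part in it was not tested. Abcc4, an exporter of prostaglandins, averaged 592.4 ± 139.9 and 761.1 ± 152.2 (SD, n = 4; DESeq2 adjusted p = 0.307).

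Of 10 leukotriene and lipoxygenase genes, 6 had an adjusted p and 1 fell. This was Lta4h, whose hydrolase makes leukotriene B4, at 1286 ± 195.2 in GFP- and 625.2 ± 67.8 in GFP+ libraries (SD, n = 4). In log2 units it differed by -1.05 ± 0.18 (SE), at adjusted p of 3.85e-07 in DESeq2 and 0.00312 in edgeR. Alox5, which starts leukotriene synthesis, averaged 11.7 ± 14.7 and 12.8 ± 6.52 (SD, n = 4; DESeq2 adjusted p = 0.865).

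Among 11 genes of the cAMP response, the signal that EP2 and EP4 feed, 10 had an adjusted p and 2 rose, against 4.66% of all tested genes. Any link of these 2 genes to EP2 or EP4 was not tested. Nr4a1, an early nuclear receptor, averaged 3925 ± 626.4 in GFP- and 5610 ± 567.4 in GFP+ libraries (SD, n = 4), a difference of 0.52 ± 0.17 in log2 units (SE; DESeq2 adjusted p = 0.0231). Dusp1, a phosphatase of MAP kinases, averaged 5105 ± 861.5 and 7844 ± 1604 (SD, n = 4), a difference of 0.62 ± 0.20 in log2 units (SE; DESeq2 adjusted p = 0.0289). The edgeR adjusted p were 0.0637 and 0.0651, and the groups overlapped for Dusp1. Each call was lost in 7 of 17 alternative settings, among them leaving out GFP- replicate 1 or 2 or GFP+ replicate 1 or 3 for Nr4a1 (DESeq2 adjusted p = 0.0547 to 0.128) and GFP- replicate 2 or 4 or GFP+ replicate 1 or 3 for Dusp1 (0.0936 to 0.131). The list's median log2 fold change was 0.11, and Crem, Per1 and Rgs2 had DESeq2 adjusted p of 0.935, 0.981 and 0.696.

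Of 13 regulators of Ptgs2, all had an adjusted p and 4 rose, at a median log2 fold change of 0.43. They were 2 receptors of inducing cytokines, 1 transcription factor and 1 destabiliser of messenger RNA. Il1r1, the receptor of interleukin-1, averaged 2524 ± 740.2 in GFP- and 5247 ± 529.0 in GFP+ libraries (SD, n = 4), a difference of 1.07 ± 0.21 in log2 units (SE; adjusted p = 3.51e-05 in DESeq2 and 0.00601 in edgeR). Tnfrsf1a, a receptor of TNF, averaged 1431 ± 291.7 and 2216 ± 345.3 (SD, n = 4), a difference of 0.64 ± 0.20 in log2 units (SE; adjusted p = 0.0202 in DESeq2 and 0.0579 in edgeR), and its call was lost in 7 of 17 alternative settings, among them leaving out GFP- replicate 1 or 4 or GFP+ replicate 1 or 3 (DESeq2 adjusted p = 0.0632 to 0.107). Cebpb, a C/EBP factor, averaged 2018 ± 162.8 and 3090 ± 518.9 (SD, n = 4), a difference of 0.62 ± 0.17 in log2 units (SE; adjusted p = 0.00534 in DESeq2 and 0.0333 in edgeR). The Cebpb call was lost without GFP+ replicate 3 (DESeq2 adjusted p = 0.0508) and in 3 of 17 settings in all. Zfp36, whose product speeds the decay of messenger RNAs that include that of Ptgs2, averaged 6832 ± 862.0 and 12440 ± 2749 (SD, n = 4), a difference of 0.87 ± 0.20 in log2 units (SE; adjusted p = 0.000367 in DESeq2 and 0.0125 in edgeR). These 4 calls were made beside 5 of 6 fibroblast markers that rose, whose part in them was not tested. The ligands Il1a, Il1b and Tnf averaged under 100 normalised counts in both groups and had DESeq2 adjusted p of 0.972, 0.800 and 0.473.

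**Figure D4:**
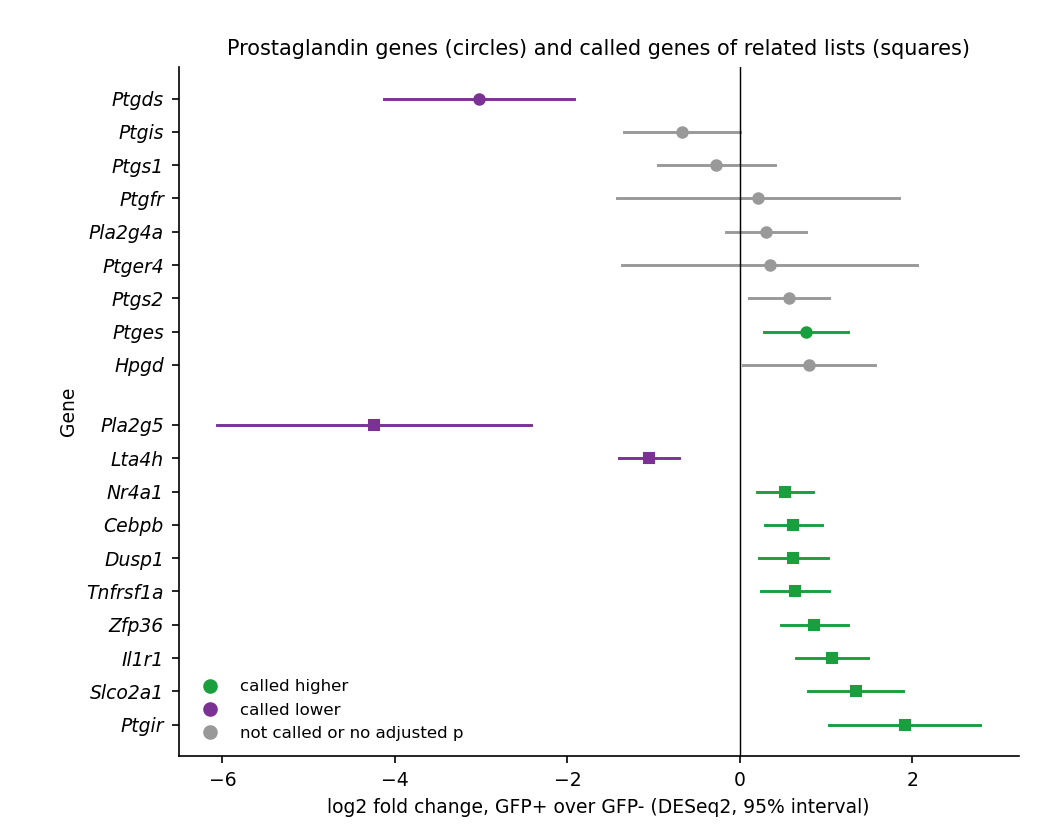
Log2 fold change of GFP+ over GFP- cells (horizontal axis) with its 95% interval from DESeq2, for the prostaglandin genes other than Ptger2 (circles) and for the 10 called genes of the related lists (squares). Ptges lies above 0 and Ptgds below it among the prostaglandin genes, and of the related genes 8 lie above 0 and 2 below.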

How the data were processed

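RNA from 4 GFP- and 4 GFP+ libraries had been prepared with a stranded low-input total RNA kit and sequenced on an Illumina NextSeq. The submitters' processing notes name GRCm38, DESeq2, featureCounts (2.0.1), cutadapt (3.4) and, for alignment, STAR (2.7.3a). For each gene the deposited table gives 8 raw read counts as whole numbers, and all values here start from these. It also holds the authors' normalised count per library, given as a score, the authors' mean signal per gene, and the authors' fold ratio, log2 fold change, dispersions and p-values of their own comparison, none of which was used. Per-sample columns left unused numbered 0 among the raw counts.

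Groups and replicate numbers followed the labels. No 2 replicates were near-identical (chi-square per degree of freedom 10.2 to 81.3). The 29043 genes with a count were fitted with DESeq2 1.42.0 in R 4.3.3, with group as the only term, default size factors and dispersions, and two-sided Wald tests with Benjamini-Hochberg adjustment. No adjusted p was given to 13443 genes by independent filtering, and no p to 317 by the Cook's distance filter. edgeR 4.0.16 (quasi-likelihood, TMM) and limma 3.58.1 (voom) were alternatives. Others were DESeq2 without independent filtering, without the Cook's filter, on genes averaging at least 10 raw counts, with TMM factors, with a replicate block, at an adjusted p under 0.01 and with single libraries left out. TPM was computed from the counts with summed exon lengths of GENCODE M21, which held 53706 of 53801 gene identifiers (99.82%). Ratios used log2 of counts plus 0.5 and exact permutation tests in SciPy 1.17.1. The code was tested on simulated data first.

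The prostaglandin genes, the related lists and the marker lists were chosen with earlier results of these data known. A further marker list is not reported here. All 10 prostaglandin genes were named, with every called gene of the related lists and others needed to account for a list. With totals of 883144 to 31666734 reads and no molecular identifiers, the spread between libraries is the error given.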

Additional observations from a re-analysis of the deposited data

Results flagged for a closer look

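In 40 sets of 4 libraries (20 named genes in 2 groups), 4 held a library far from the others by Dixon's test at the 95% level, and chance flags about 1 in 20 such sets. Ptger4 stood at a normalised count of 880.5 in GFP- replicate 1, with 197.8 the nearest of the others. It stood at 1054 in GFP+ replicate 1, with 280.4 the nearest. Ptgir stood at 98.89 in GFP- replicate 3, the shallowest library, with 35.19 the nearest. Lta4h stood at 1576 in GFP- replicate 4, with 1231 the nearest.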

How the results depend on the processing

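Ptgds was called lower in all 17 alternative fits, and the number of prostaglandin genes called lower was 1 in each of them. The number called higher, 1 by DESeq2, was 0 with edgeR, limma, no independent filtering (Ptges at a DESeq2 adjusted p of 0.0510), an adjusted p under 0.01, total-count factors or both libraries numbered 1 left out, and 0 to 2 when single libraries were left out. The total-count factors and the removal of both libraries numbered 1 were chosen after seeing the data. The number of related genes called, 10 by DESeq2, was 6 with edgeR, 14 with limma, 6 with total-count factors and 6 to 13 when single libraries were left out. Over all genes DESeq2 called 1439, edgeR 732 and limma 1289, and 969 to 1837 were called without single libraries, the most without GFP- replicate 3.

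Log2 fold changes turned for Ptgs1 (0.044 without GFP- replicate 1, and -0.40 to 0.044 without single libraries), Ptger4 (-0.58 without GFP+ replicate 1, range -0.58 to 1.47) and Ptgfr (-0.21 without GFP- replicate 1 and -0.12 without GFP+ replicate 2, range -0.21 to 0.56). The Ptgs2 to Hpgd difference ran from -0.43 to 0.10 without single libraries, and turned to 0.066, 0.025 and 0.10 without GFP- replicate 3, GFP+ replicate 1 and GFP+ replicate 4. The Ptger4 to Ptger2 difference turned to 0.30 with 2 counts added. The cause was not tested.

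Deviations of same-numbered libraries from their group means correlated at 0.0503, -0.158, -0.122 and 0.262 over 8812 genes. Only replicate 4 matched its own number best. The libraries numbered 1 were the highest for Ptger4 and the lowest for Ptgfr in both groups. These values cannot settle whether same-numbered libraries share a mouse, since library depth also differed. With the number as a replicate block, 1492 genes were called, 1 prostaglandin gene was called higher and 1 lower, and 12 related genes were called in place of 10. The ratio differences under the block were 0.73, -0.13 and -0.82, with exact sign-flip permutation p of 0.375 to 0.750, where 0.125 is the smallest possible.

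Low counts limit Ptger2, with 21 reads in all, and GFP- replicate 3, where Ptgfr had 9 reads, Ptgs1 10 and Pla2g5 4.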
